A study of Mus musculus with 12 samples.

Results

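The subject here is dorsal skin of C57BL/6J mice under chronic restraint stress (CRS), set against skin of untreated C57BL/6J mice of the same series. The rule took the 3 CRS and 3 control libraries of 1 deposited table, 6 of the 12 libraries of the series, all from day 29. Genes were kept where at least 3 of the 6 libraries reached 1 FPKM (fragments per kilobase of transcript, scaled to the mapped fragments of the library), which left 13944 of 55401. The other 6 libraries came from imiquimod-treated skin, without and with CRS, and are used in the closing comparison and where a result needs them. The study asked how psychological stress affects psoriasis-like skin. Neither group of the main comparison received imiquimod. The labels gave neither the schedule of restraint, nor the hour of tissue collection, nor the age of the animals.

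Restraint raises glucocorticoid hormones, which leave the adrenal gland, bind the glucocorticoid receptor in nearly every cell and both activate and repress genes. They restrain immune cells, mobilize fuel from muscle and other tissues, and reset the circadian clock of peripheral organs. Skin is a layered organ in which basal keratinocytes divide, spinous and granular cells differentiate, and cornified cells form the barrier. Its hair follicles cycle between growth and rest, and the dermis below holds fibroblasts, macrophages, vessels and, in mice, a sheet of skeletal muscle.

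The libraries differed within and between groups in ways that touch most results. From 13248 to 13712 genes per library reached 1 FPKM, and read totals were not used here. Among genes with a mean of at least 10 FPKM the coefficient of variation over the 3 libraries had a median of 13.3% in control and 5.0% in CRS. Nothing in the labels states that the libraries are from different animals, so p-values measure the spread between these libraries, which may be technical. Control replicate 3 stood apart from replicates 1 and 2 in many keratinocyte and muscle genes, on the side of CRS. Mitochondrially encoded and muscle genes together took 12.8%, 18.5% and 23.9% of all FPKM in control replicates 1, 2 and 3, against 32.4%, 33.0% and 31.1% in CRS. Since FPKM are shares of a library, a higher share of these genes lowers the values of all others. The keratinocyte genes Krt5 and Krt14 were high in all 6 libraries, as skin has them. Whether the closely alike CRS libraries are separate samples could not be tested without read totals, so each set of calls is also given with the 3 CRS libraries averaged to 1 sample. In such bulk samples, fewer cells of a type and less RNA per cell cannot be told apart.

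Restraint-stressed skin had lower transcript levels of the differentiating epidermis and of macrophages, dendritic cells and T cells, and higher levels of the growing hair follicle, pigment cells, clock repressors, fasting-response genes and stressed muscle. Over all genes, limma called 6086 of the 13944 tested, or 43.6%, at a Benjamini-Hochberg adjusted p under 0.05. Of these 2131 were higher in CRS (15.3% of genes tested) and 3955 lower (28.4%). More falls than rises were large, since 1325 called genes fell at least 2-fold and 386 rose at least 2-fold, and 92 fell and 21 rose at least 8-fold. Differences are of mean log2(FPKM + 1), CRS minus control, which understates the change of low genes. A gene below 1 FPKM throughout 1 group was tested only where all libraries of the other group reached 1 FPKM. In all gene lists this favors rises where control was low and falls where CRS was low. The libraries of the groups did not overlap for 58.2% of genes, and the smallest exact p for 3 against 3 libraries is 0.1. The excess of falls depended on how libraries were scaled. Rises were 35.0% of calls in the values as deposited, 45.2% with median-ratio scaling and 51.1% after rescaling without mitochondrial and muscle genes. Quantile normalization gave 56.1%, and the all-gene median was then 0.08, not -0.09. With CRS averaged to 1 sample, which assumes that the lone sample varies like the controls, 838 genes were called, 188 higher and 650 lower. The count of rises also fell to 1384 without control replicate 2 and to 1278, 1298 and 1262 without CRS replicates 1, 2 and 3.

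**Figure D1:**
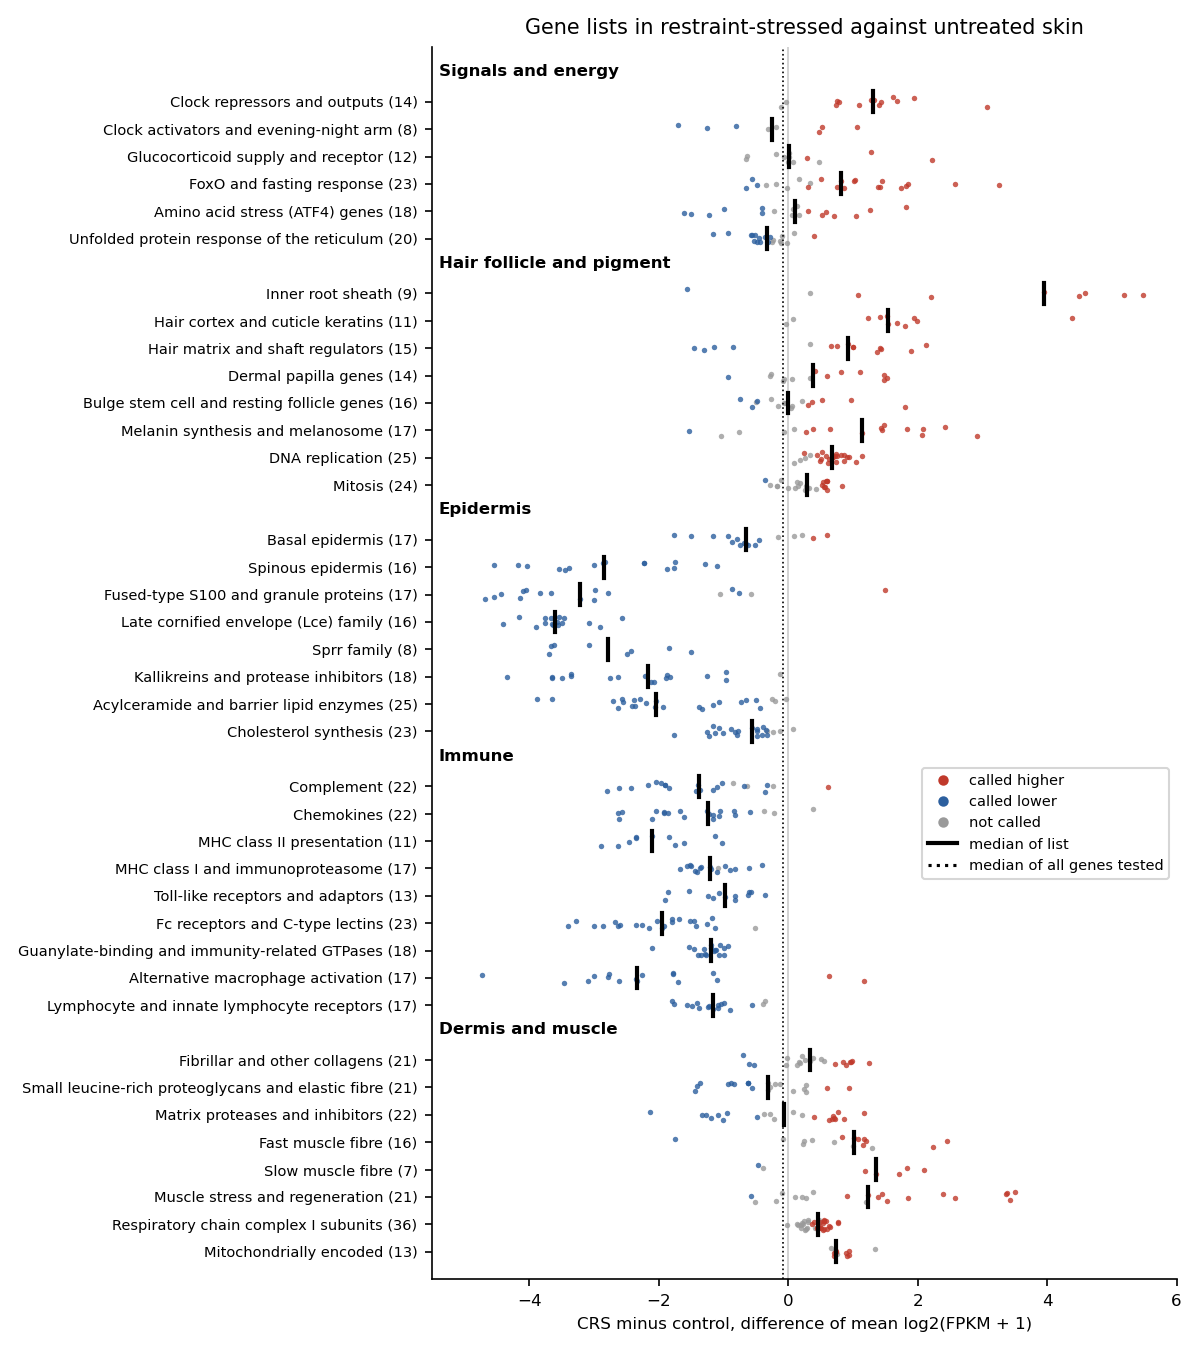
Difference of each tested member of the main gene lists, CRS minus control in log2(FPKM + 1) (x axis), with a point per gene, a black bar at the median of the list and a dotted line at the median of all genes tested, -0.09. The epidermal and immune lists lie to the left, with medians down to -3.60 for the late cornified envelope family, and the inner root sheath list has the highest median, 3.95.

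The molecular clock of the skin differed between the groups in both of its arms. Of 14 clock repressors and outputs tested, 12 rose and 0 fell, with a median of 1.30 against -0.09 over all genes. These are the genes that the activator pair of Bmal1 and Clock switches on, and several of their products switch that pair off. Per2 (ENSMUSG00000055866, chr1:91415982-91459324, minus strand, GRCm38), a core repressor, had 0.41, 0.413 and 0.694 FPKM in control replicates 1, 2 and 3 and 12.3, 11.5 and 10.9 in CRS. Its CRS libraries lay far above all control libraries, with a log2 difference of 3.07 (adjusted p = 4.33e-05). Per1, a repressor that glucocorticoids also induce directly, had 5.78, 5.22 and 5.92 FPKM in control and 26.9, 23.7 and 23.2 in CRS. It rose by 1.95 (adjusted p = 0.000114), again without overlap. Dbp, an output that drives daily metabolic genes, went from 15.4, 15 and 16.5 to 50.7, 50.2 and 56.1 FPKM, a rise of 1.68 (adjusted p = 0.000116). Ciart, which represses the activator pair, rose by 1.62 (adjusted p = 0.000116), and Per3, Tef, Usp2, Wee1, Bhlhe40, Bhlhe41, Cry2 and Nr1d2 rose by 0.74 to 1.43. The exceptions were Nr1d1, the Rev-erb alpha repressor, and Hlf. Nr1d1 had 52.3, 59.3 and 71.9 FPKM in control and 60.7, 58.4 and 58.4 in CRS, and the groups overlapped (log2 -0.04, adjusted p = 0.842). Hlf differed by -0.11 (adjusted p = 0.557), and the sign of both changed with scaling.

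The activator arm was divided. Of 8 genes tested, 3 rose and 3 fell. Arntl, which encodes Bmal1, had 5.02, 4.98 and 4.45 FPKM in control and 0.779, 0.702 and 0.881 in CRS. The CRS libraries were far below the control libraries (log2 -1.70, adjusted p = 0.000116). Npas2, which can stand in for Clock, fell from 2.69, 2.15 and 2.22 to 0.354, 0.527 and 0.32 FPKM (log2 -1.26, adjusted p = 0.000399). Rora, an activator of Arntl, fell by 0.81 (adjusted p = 0.0016). Cry1 and Nfil3 rose by 0.51 and 0.47. Clock itself was low in every library, at 0.573, 0.974 and 2.29 FPKM in control and 0.401, 1.18 and 1.28 in CRS, and was not called. Within each library the ratio of Per2 to Arntl was 0.107 ± 0.0426 in control and 14.9 ± 2.15 in CRS, and that of Dbp to Arntl 3.26 ± 0.390 and 66.7 ± 4.12 (SD, n = 3). These ratios do not depend on the scaling between libraries. The calls of Per2, Per1, Dbp, Ciart, Arntl and Npas2 held with CRS averaged to 1 sample, and those of Rora, Cry1 and Nfil3 did not. The hour of tissue collection and a shift of the clock's phase cannot be told apart here from a change in the amount of these transcripts.

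**Figure D2:**
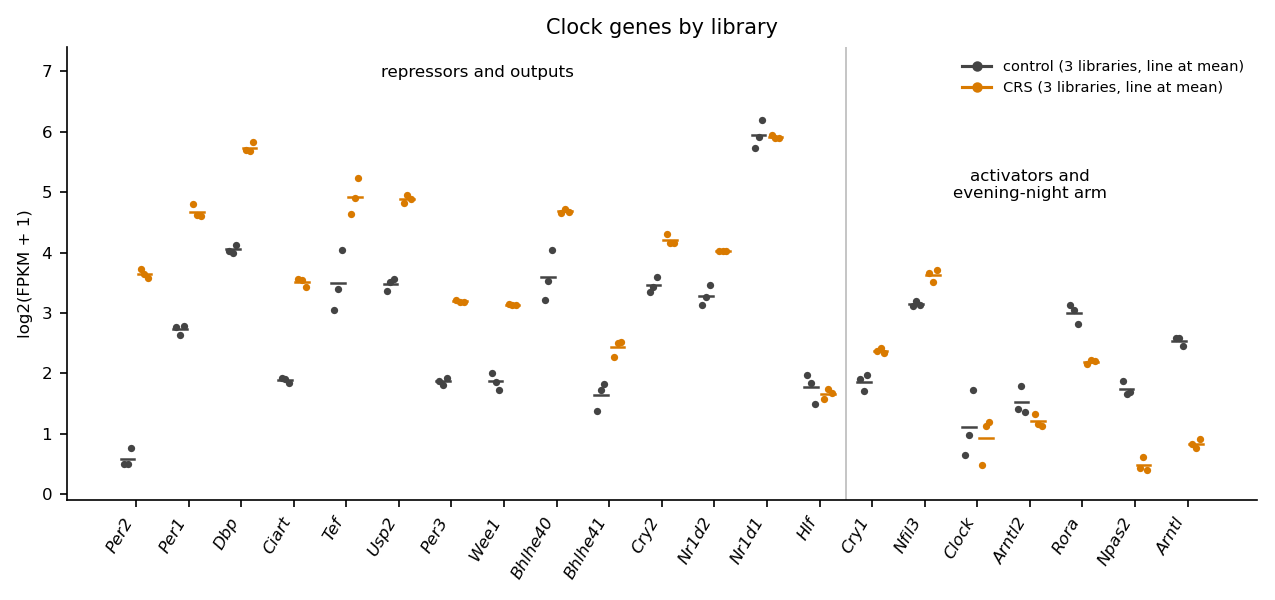
Transcript level of clock genes, as log2(FPKM + 1) (y axis), in the 3 control libraries (grey) and 3 CRS libraries (orange), with a line at each mean. The CRS libraries lie above the control libraries for 12 of the 14 repressors and outputs, while Rora, Npas2 and Arntl lie below.

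Promoters of 3 of the risen clock genes are shown because they hold the element through which the activator pair binds DNA, the E-box CACGTG, here in capitals. The sequences are the 250 bases before the start site in RefSeq (GRCm38.p6), read 5′ to 3′ on the strand of the gene.
Per1 (chr11:69098699-69098948, plus strand): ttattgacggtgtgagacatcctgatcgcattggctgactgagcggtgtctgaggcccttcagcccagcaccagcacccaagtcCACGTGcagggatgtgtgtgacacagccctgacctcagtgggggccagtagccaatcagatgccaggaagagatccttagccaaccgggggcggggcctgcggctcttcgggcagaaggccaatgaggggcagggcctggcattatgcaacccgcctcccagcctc
Ciart (chr3:95882229-95882478, minus strand): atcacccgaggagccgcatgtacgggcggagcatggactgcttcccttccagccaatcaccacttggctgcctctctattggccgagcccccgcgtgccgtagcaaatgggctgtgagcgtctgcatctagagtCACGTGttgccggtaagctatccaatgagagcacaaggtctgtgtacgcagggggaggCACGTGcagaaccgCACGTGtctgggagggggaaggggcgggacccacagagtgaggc
Bhlhe41 (chr6:145865421-145865670, minus strand): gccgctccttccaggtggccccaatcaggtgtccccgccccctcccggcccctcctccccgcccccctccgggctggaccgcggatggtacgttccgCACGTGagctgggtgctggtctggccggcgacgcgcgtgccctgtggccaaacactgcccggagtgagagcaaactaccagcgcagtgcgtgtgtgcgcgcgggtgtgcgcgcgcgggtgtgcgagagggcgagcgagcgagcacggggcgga
In Ciart the element occurred 3 times within this stretch, beginning 116, 58 and 44 bases before the start site. In Per1 it began 166 bases before the start of 1 of its 2 promoters and in Bhlhe41 153 bases before it. Among the 14 clock repressors and outputs, 11 had RefSeq promoters of 300 bases (250 before and 50 after the start), and 4 of the 11 held CACGTG, which reads the same on both strands. Of all 27025 genes with such promoters 8.09% held it, of the genes tested 11.7%, of those called higher 11.7% and of those called lower 10.4%. A match describes the letters of this window and is not a measurement of binding.

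Among genes that supply or receive the stress hormones, few passed. Of 12 tested, 3 rose and 0 fell, with a median of 0.02. The smallest of these rises was that of Fkbp4, a co-chaperone of the glucocorticoid receptor, by 0.29 (adjusted p = 0.0412), and it missed the threshold without control replicate 1 or 2 or any 1 CRS library (adjusted p = 0.0569 to 0.141). Fkbp5 (ENSMUSG00000024222, chr17:28399094-28517527, minus strand, GRCm38), a chaperone partner that dampens the glucocorticoid receptor and is itself induced by it, had 2.81, 3.42 and 3.34 FPKM in control and 18.5, 18.2 and 18.4 in CRS. The CRS libraries were closely alike and all higher (log2 2.21, adjusted p = 6.97e-05). The receptor gene Nr3c1 had 11.1, 11.8 and 12.6 FPKM in control and 10.1, 3.78 and 9.69 in CRS, where replicate 2 was far below the other two, and it was not called (log2 -0.63, adjusted p = 0.166). Hsd11b1, whose enzyme regenerates active glucocorticoid in tissues, differed by 0.07 (adjusted p = 0.563). The mineralocorticoid receptor gene Nr3c2, which binds the same hormones, had 0.549, 0.752 and 1.53 FPKM in control and 1.78, 1.66 and 1.51 in CRS (log2 0.48, adjusted p = 0.0815), and control replicate 3 lay within the CRS range. It passed without that library (0.68), with quantile normalization (0.58) and with all 12 libraries in the fit (0.48). Crhr1, the receptor of corticotropin-releasing hormone, was close to 0 in control at 0.061, 0 and 0.057 FPKM and had 1.82, 1.53 and 1.24 in CRS (log2 1.28, adjusted p = 0.000413). Of 3 adrenergic receptor genes tested 1 rose and 1 fell. Adra2a, an adrenergic receptor through which adrenaline acts, rose by 0.44 (adjusted p = 0.00601). Adrb3 fell, but missed the threshold without control replicate 2 (-0.89), CRS replicate 1 (-0.91) or CRS replicate 2 (-0.94). Fkbp5 and Crhr1 also passed with CRS as 1 sample, unlike Fkbp4 and Adra2a.

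Genes of the fasting response, which the FoxO factors and glucocorticoids switch on when fuel is short, were mostly higher. Of 23 tested, 15 rose and 3 fell, with a median of 0.81. Pdk4, which turns cells from glucose to fat as fuel, had 2.8, 4.25 and 7.83 FPKM in control and 53.4, 51.4 and 52.3 in CRS. The groups were widely separated (log2 3.25, adjusted p = 0.000512). Trim63 and Fbxo32, the ubiquitin ligases of muscle breakdown, are members of this list. Trim63 went from 9.08, 13.8 and 24.3 to 87.9, 85.9 and 102 FPKM, a rise of 2.57 (adjusted p = 0.00161), and Fbxo32 from 9.25, 10.2 and 14.1 to 31, 30.8 and 29.6, a rise of 1.39 (adjusted p = 0.000949). Irs2, an adapter of the insulin receptor, rose by 1.82 (adjusted p = 0.000147) and Ucp3, a carrier of muscle mitochondria, by 1.85 (adjusted p = 0.00136). Both metal-binding metallothioneins of wide expression rose alike, Mt1 by 1.44 and Mt2 by 1.42, whereas Mt4, the form of stratified epithelium, fell by 1.61 (adjusted p = 0.00243). Sesn1, an inhibitor of growth signaling, fell by 0.48. Several of these genes are expressed in muscle, whose share of the libraries was higher in CRS, and its part in the result was not tested. Within each library the ratio of Trim63 to the muscle actin Acta1 was 0.00185 ± 0.000200 in control and 0.00415 ± 0.000352 in CRS (SD, n = 3). The ratio of Ppargc1a to Acta1 did not separate the groups, at 9.61e-05 ± 2.09e-05 in control and 9.10e-05 ± 4.81e-06 in CRS. Averaging CRS to 1 sample kept the calls of Pdk4 and Irs2 and ended those of Trim63, Fbxo32, Ucp3, Mt1, Mt2, Mt4 and Sesn1.

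The other branches of stress signaling did not move as blocks. Genes that the factor ATF4 switches on under amino acid shortage were split, with 7 rises and 6 falls of 18 tested. Atf3, an early stress factor, rose from 4.55, 4.99 and 4.97 to 19.9, 19.9 and 19.2 FPKM (log2 1.82, adjusted p = 7.37e-05), while Nupr1 and Trib3 fell by 1.61 and 1.5. Of 20 genes of the unfolded protein response, which serve protein folding in the endoplasmic reticulum, 12 fell and 1 rose, with a median of -0.33. Sdf2l1 fell by 1.16 (adjusted p = 0.00175) and Edem1 by 0.93 (adjusted p = 0.000794), both of which handle misfolded or newly folded proteins. In insulin and growth factor signaling 5 of 14 genes rose and 4 fell. The binding proteins of insulin-like growth factors Igfbp3, Igfbp5 and Igfbp6 fell by 1.22, 1.13 and 1.07. The calls of Atf3, Nupr1, Trib3 and Igfbp3 held with CRS averaged to 1 sample, and those of Sdf2l1, Edem1, Igfbp5 and Igfbp6 did not.

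Epidermal genes were lower in CRS, and list medians lay further down in the outer layers than in the basal one. Of 17 basal genes tested 12 fell and 2 rose, with a median of -0.64, and of 16 spinous genes 16 fell, with a median of -2.85. In the granular and cornified layers 16 of 16 late cornified envelope (Lce) genes fell (median -3.60) and 8 of 8 Sprr genes (median -2.78). Of 17 granule proteins 14 fell (median -3.21), with 1 rise. The lists held 21 Lce and 15 Sprr genes, and those not tested did not pass the filter. The background for falls was 28.4% of genes tested. Krt14, the keratin of the basal layer, had 2246, 2199 and 1471 FPKM in control and 849.8, 841 and 919 in CRS. The lowest control library was still above the highest CRS library (log2 -1.15, adjusted p = 0.0053). Krt10 (ENSMUSG00000019761, chr11:99385254-99389364, minus strand, GRCm38), the keratin that replaces it in the spinous layer, had 4761, 4099 and 2765 FPKM in control and 208, 204 and 212 in CRS. It fell by 4.18 (adjusted p = 0.00014), far more than Krt14. Within each library the ratio of Krt10 to Krt14 was 1.96 ± 0.143 in control and 0.239 ± 0.00717 in CRS, which does not depend on the scaling between libraries. The same held for Krt1 over Krt5, at 0.318 ± 0.0124 and 0.0570 ± 0.000269, and for Krt77 over Krt5, at 1.06 ± 0.0529 and 0.0859 ± 0.00127 (SD, n = 3). The basal genes Krt15, Itgb1 and Cdh3 were not called, and Postn, a matrix protein, rose by 0.61. Krt5 fell by 0.93 (adjusted p = 0.0136) but missed the threshold without control replicate 2 (-0.84) or without any 1 CRS library (-0.94 to -0.92). Krt10 also passed with CRS as 1 sample, unlike Krt14, Krt5 and Postn.

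**Figure D3:**
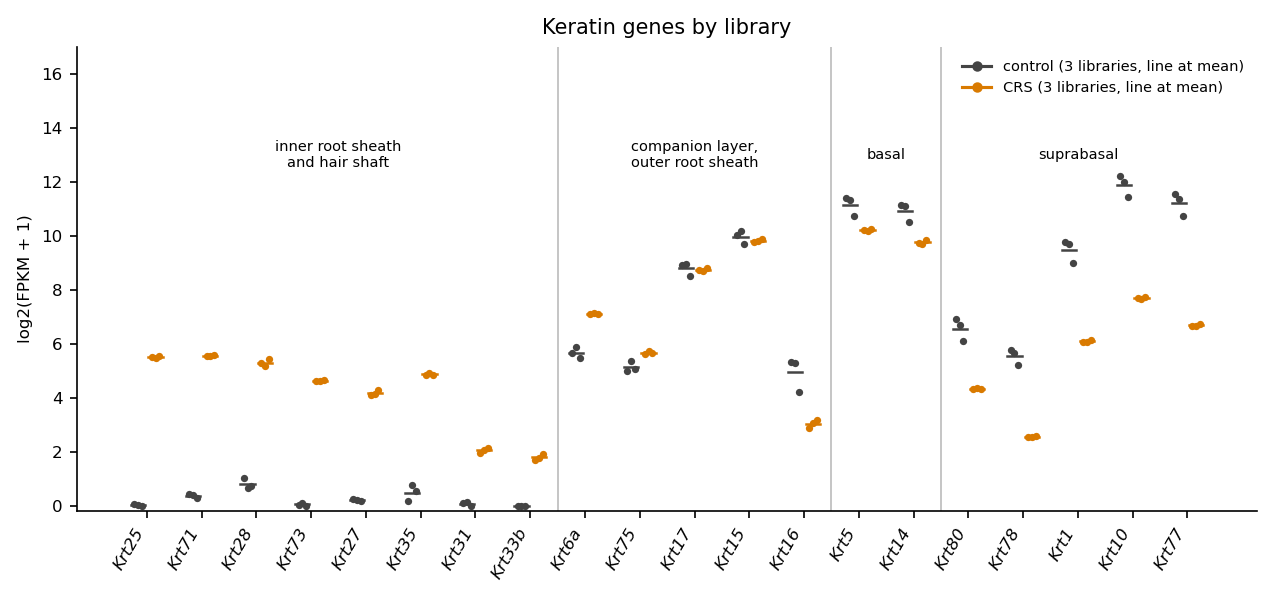
Transcript level of keratin genes as log2(FPKM + 1) (y axis) in the 3 control libraries (grey) and 3 CRS libraries (orange), with a line at each mean. The keratins of the inner root sheath and hair shaft at the left lie near 0 in control and well above it in CRS, while the suprabasal keratins at the right lie lower in CRS, as the basal keratins do by less.

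Within the outer layers structural proteins and the enzymes that shed them fell. Kprp, a proline-rich protein of the cornified envelope, had 257, 202 and 131 FPKM in control and 5.99, 6.84 and 6.4 in CRS (log2 -4.69, adjusted p = 0.000136). Asprv1, the protease that trims filaggrin, fell by 4.55 (adjusted p = 0.00014). Sprr1b, which is crosslinked into the envelope, went from 27.9, 22 and 10.4 to 0.447, 0.247 and 0.936 FPKM, a fall of 3.69 (adjusted p = 0.000714). Prr9 was the exception among granule proteins, with 0.0423, 0.123 and 0.0416 FPKM in control and 2.28, 2.02 and 1.8 in CRS (log2 1.5, adjusted p = 0.000178). Of 18 kallikreins and other proteases or inhibitors of shedding, 17 fell, with a median of -2.17. The desmosome-cleaving protease gene Klk5 had 142, 129 and 80.6 FPKM in control and 4.14, 4.99 and 4.89 in CRS (log2 -4.34, adjusted p = 0.000122). Klk7 fell by 3.65 (adjusted p = 0.000161), and Spink5, which inhibits both proteases, by 0.95 (adjusted p = 0.00567). Members of the Lce and Sprr families are near-identical in part, so values of single members are uncertain. Averaging CRS to 1 sample kept the calls of Kprp, Asprv1, Sprr1b, Prr9, Klk5 and Klk7 and ended those of Spink5.

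Enzymes of the lipid barrier fell with them. Of 25 genes that make or process acylceramides, the wax-like lipids between cornified cells, 22 fell and 0 rose, with a median of -2.04. Alox12b, a lipoxygenase of this pathway, had 59.1, 49.7 and 29.6 FPKM in control and 2.25, 1.69 and 2.34 in CRS (log2 -3.88, adjusted p = 0.000221). Sdr9c7, which acts downstream of it, fell by 3.65 (adjusted p = 0.000264), and the ceramide synthase gene Cers3 by 2.56 (adjusted p = 0.000365). Cholesterol synthesis was lower to a smaller degree, with 19 falls of 23 and a median of -0.55, or 12 falls and 1 rise with quantile normalization. Dhcr7, its last step, fell from 26.1, 22.3 and 16 to 5.41, 5.84 and 5.32 FPKM (log2 -1.76, adjusted p = 0.000717). Among junction genes 11 of 21 fell and 4 rose. The claudin gene Cldn23 fell by 3.22 (adjusted p = 0.000484) and the connexin gene Gjb5 by 2.71 (adjusted p = 0.000509). Gjb2, the connexin of activated and follicular keratinocytes, rose instead, from 5.01, 3.73 and 2.67 to 10.6, 11.1 and 10.4 FPKM (log2 1.31, adjusted p = 0.00216). The calls of Alox12b, Sdr9c7, Cers3, Cldn23 and Gjb5 held with CRS averaged to 1 sample, and those of Dhcr7 and Gjb2 did not.

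Some growth signals of the epidermis were low as well, although the medians of their lists lay near the -0.09 of all genes. Over all genes tested 28.4% fell and 15.3% rose. Of 24 FGF and EGF receptor ligands 10 fell (41.7%) and 5 rose (20.8%), with a median of -0.13 that was 0.03 with quantile normalization. The EGF receptor ligand Ereg had 8.67, 8.71 and 5.98 FPKM in control and 0.289, 0.358 and 0.296 in CRS (log2 -2.72, adjusted p = 0.00014). Its relative Btc fell from 10.6, 8.36 and 1.83 to 0.157, 0.23 and 0.237 FPKM (log2 -2.48, adjusted p = 0.0103), whereas Egf rose by 0.81 (adjusted p = 0.0141). Of 36 Wnt pathway genes 15 fell (41.7%) and 7 rose (19.4%), with a median of -0.14. Wnt3 and Wnt7b fell by 2.53 and 1.86 (adjusted p = 0.000341 and 0.00178), while Wnt10b, a Wnt of the growing follicle, had 2.91, 2.74 and 2.83 FPKM in control and 6.88, 4.85 and 6.02 in CRS (log2 0.84, adjusted p = 0.00263, 0.141 with all 12 libraries in the fit). All 11 Skint genes tested, a mouse family of skin and thymus that selects epidermal T cells, were lower, with a median of -2.03. Skint9 had 38.2, 31.6 and 18.3 FPKM in control and 2.45, 2.18 and 1.99 in CRS (log2 -3.19, adjusted p = 0.00039). Skint genes are close copies of each other, so single members are uncertain. Beside these epidermal results, 5 of 5 keratinocyte markers fell (Krt5, Krt14, Krt1, Krt10 and Trp63), with a summed level of 6458 to 10576 FPKM in control and 2297 to 2422 in CRS, and the part of the muscle share in them was not tested. Trp63, the master factor of stratified epithelium, missed the threshold without control replicate 2 (-0.38) or without any 1 CRS library (-0.45 to -0.44). Ereg, Wnt3, Wnt10b and Skint9 also passed with CRS as 1 sample, unlike Btc, Egf and Wnt7b.

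Most genes tested of the hair matrix, inner root sheath and hair shaft were higher in CRS, while other follicle lists were mixed. Keratins of the companion layer and outer root sheath had 4 rises and 4 falls of 9. Their median of -0.04 was 0.28 with quantile normalization. Shh (ENSMUSG00000002633, chr5:28456815-28467256, minus strand, GRCm38), the ligand that drives growth of the follicle, had 0.175, 0.273 and 0.144 FPKM in control and 4.42, 4.2 and 4.03 in CRS. It was near the detection limit in control and present in each CRS library (log2 2.12, adjusted p = 7.37e-05). Of 11 genes of the Hedgehog pathway 5 rose and 3 fell, with a median of -0.14 that was 0.04 with quantile normalization. Gli1, a direct target of the pathway, went from 7.05, 9.81 and 9.65 to 34.4, 34.4 and 30.6 FPKM (log2 1.81, adjusted p = 0.000314), while Gas1, a co-receptor, fell by 0.76 (adjusted p = 0.000771). Of 15 matrix and shaft regulators 10 rose and 4 fell, with a median of 0.92. Msx2 and Hoxc13, transcription factors of the hair matrix, rose by 1.90 and 1.43 (adjusted p = 0.000392 and 0.000458). The 4 that fell were Prdm1, Ovol1, Foxn1 and Foxq1, by 1.45, 1.30, 1.14 and 0.85, and Prdm1, Ovol1 and Foxn1 also act in differentiating epidermis. Averaging CRS to 1 sample kept the calls of Shh, Gli1, Msx2 and Hoxc13 and ended those of Gas1, Prdm1, Ovol1, Foxn1 and Foxq1.

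The structural genes of the hair had the 2 highest list medians. Of 9 inner root sheath genes 7 rose and 1 fell (median 3.95), and of 11 hair cortex and cuticle keratins 9 rose, with a median of 1.55. Krt71, a keratin of the inner root sheath, had 0.34, 0.334 and 0.223 FPKM in control and 46.2, 45.5 and 47.3 in CRS (log2 5.19, adjusted p = 9.86e-07). Krt35, an early keratin of the cortex and cuticle, had 0.127, 0.692 and 0.457 FPKM in control and 27.9, 29.3 and 27.9 in CRS (log2 4.39, adjusted p = 5.10e-05). Krt81 and Krt33b were listed at 0 in the 3 control libraries and averaged 1.9 ± 0.171 and 2.48 ± 0.262 FPKM in CRS, so no fold is given. The keratin-associated protein Krtap7-1 was likewise listed at 0 in control and had 8.81, 7.59 and 8.3 FPKM in CRS (adjusted p = 1.74e-05). Of 8 such genes tested 6 rose and 1 fell. The one that fell, Krtap3-2, went from 24.3, 22.4 and 19.4 to 2.38, 2.24 and 1.77 FPKM (log2 -2.88, adjusted p = 0.000104). Gata3, which specifies the inner root sheath and also acts in lymphocytes and epidermis, fell by 1.57 (adjusted p = 0.00156). Genes with low control values entered through the CRS libraries, which favors rises in these counts. The calls of Krt71, Krt35, Krtap7-1 and Krtap3-2 held with CRS averaged to 1 sample, and those of Gata3 did not.

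Medians of the niche and the stem cells lay nearer to that of all genes. Of 14 dermal papilla genes, which mark the fibroblast cluster that instructs the follicle, 7 rose and 1 fell, with a median of 0.38. Alpl rose by 1.53 (adjusted p = 0.000178) and Wif1 by 1.48 (adjusted p = 0.00211). Of 16 genes of bulge stem cells and the resting follicle 5 rose and 3 fell, with a median of 0.00. Lgr5, a stem cell marker of the lower follicle, had 1.44, 2.0 and 1.92 FPKM in control and 1.58, 1.61 and 1.78 in CRS and was not called, with a sign that changed with scaling. Fgf5, which ends hair growth, was below 1 FPKM in all 6 libraries and was not tested. Among genes of dividing cells, those of DNA replication were mostly higher and those of mitosis less often. Of 25 DNA replication genes 21 rose and 0 fell (median 0.68), and of 24 mitosis genes 9 rose and 1 fell (median 0.28). In the wider KEGG cell cycle pathway 26 of 109 genes rose and 19 fell (median 0.06). Mcm5, part of the replicative helicase, had 6.16, 5.32 and 3.81 FPKM in control and 11.3, 11.1 and 11.7 in CRS (log2 1.04, adjusted p = 0.00277), and Uhrf1 rose by 1.14 (adjusted p = 0.00136). The cell cycle inhibitors Cdkn1a and Cdkn2b fell, from 80.8, 79.9 and 58.8 to 25.8, 24.5 and 25.9 FPKM (log2 -1.47, adjusted p = 0.000611) and by 1.64 (adjusted p = 0.00074). Alpl also passed with CRS as 1 sample, unlike Wif1, Mcm5, Uhrf1, Cdkn1a and Cdkn2b.

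Pigment genes rose together with those of the shaft. Of 17 genes of melanin synthesis and melanosomes 12 rose and 1 fell, with a median of 1.14. Pmel, the fibre protein of melanosomes, had 5.56, 6.56 and 4.99 FPKM in control and 34.7, 34.2 and 35.2 in CRS (log2 2.42, adjusted p = 0.000104). Mlana rose by 2.91 (adjusted p = 1.76e-05), and Slc24a5, an ion exchanger of melanosomes, by 2.08 (adjusted p = 4.33e-05). Mitf, the master factor of pigment cells, had 3.16, 2.78 and 2.67 FPKM in control and 3.11, 3.37 and 2.82 in CRS and was not called. All 5 hair follicle markers were called higher, with a sum of 1.13 to 1.85 FPKM in control and 128 to 130.4 in CRS, and no marker was at 0 in all libraries of a group. The same sum was 13.3, 562 and 236 FPKM in the 3 libraries given imiquimod without restraint, so unstressed libraries of the series spanned a wide range on both sides of CRS. The 5 melanocyte markers summed to 15.4 to 18.2 FPKM in control and 81.3 to 95.9 in CRS, and to 52.7, 181 and 103 in those imiquimod libraries. The hair cycle stage of the animals was not given in the labels, and a difference in stage and an effect of restraint cannot be told apart with these groups. In the fit with CRS averaged to 1 sample, all of Pmel, Mlana and Slc24a5 kept their calls.

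Transcripts of macrophages, dendritic cells and Langerhans cells, which reside in the skin, were lower in CRS. Of 17 genes of alternatively activated macrophages, the tissue-repair type, 15 fell and 2 rose, with a median of -2.33. Retnla (ENSMUSG00000061100, chr16:48842551-48844461, plus strand, GRCm38), a secreted product of such cells, had 2013, 1463 and 1097 FPKM in control and 54.2, 54.4 and 54.8 in CRS. This was the largest fall of all genes tested (log2 -4.74, adjusted p = 0.000116). Folr2, a folate receptor of resident macrophages, went from 85, 77 and 84.8 to 8.34, 8.37 and 9.73 FPKM (log2 -3.09, adjusted p = 2.43e-05). The exceptions were Arg1 and Chil3, which rose by 0.63 and 1.17 (adjusted p = 0.0164 and 0.00689), but Arg1 missed the threshold without any 1 CRS library (0.61 to 0.65) and with all 12 libraries in the fit (0.63). Of 23 Fc receptors and C-type lectins, which bind antibodies and sugars, 22 fell and 0 rose, with a median of -1.94. The lectin gene Cd209f fell by 3.41 (adjusted p = 3.64e-05), although Cd209 genes are close copies and their values uncertain. Within each library the ratio of the macrophage receptor Csf1r to the fibroblast receptor Pdgfra was 9.80 ± 1.94 in control and 1.84 ± 0.0924 in CRS (SD, n = 3). All 5 macrophage markers were called lower, with a sum of 492 to 739.5 FPKM in control and 101 to 111 in CRS. The same sum was 90.4, 135 and 114 FPKM in the 3 libraries given imiquimod without restraint. The 3 dendritic and Langerhans cell markers tested were called lower as well. Markers of mast cells, which also reside in skin, did not move one way, since Cpa3 fell, Kit rose and 3 of the 5 were not called, with a median of -0.07 and a sum of 120.3 to 185 FPKM in control and 128 to 149 in CRS. The calls of Retnla, Folr2, Chil3 and Cd209f held with CRS averaged to 1 sample, and those of Arg1 did not.

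What these cells make and present was lower in the same libraries. Of 22 complement genes 18 fell and 1 rose, with a median of -1.38. C1qc, a subunit of the first component, had 205, 148 and 149 FPKM in control and 26.5, 25.9 and 26.5 in CRS (log2 -2.61, adjusted p = 0.000145), and properdin (Cfp) fell by 2.79 (adjusted p = 0.000154). Of 34 chemokines listed 22 were tested, of which 19 fell and 0 rose, with a median of -1.24. Ccl8, which attracts monocytes and T cells, went from 204, 172 and 134 to 26.5, 23.1 and 29.5 FPKM (log2 -2.63, adjusted p = 0.000235). Ccl6 and Ccl24 fell by 2.57 and 2.61. Of 9 chemokine receptors 7 fell, among them Ccr2 by 2.07 (adjusted p = 0.000116), and Cxcr4 rose by 0.82 (adjusted p = 0.00162). All 11 genes of MHC class II presentation fell, with a median of -2.10, including the invariant chain Cd74 from 915, 685 and 500.2 to 90.5, 87.4 and 93.5 FPKM (log2 -2.90, adjusted p = 0.000333). Of 17 genes of MHC class I and the immunoproteasome 16 fell, with a median of -1.21. All 13 Toll-like receptors and adaptors fell, with a median of -0.98, among them Unc93b1, the chaperone of the receptors in endosomes, by 1.90 (adjusted p = 0.000356). C1qc, Cfp, Ccl8, Ccl6, Ccl24, Ccr2, Cd74 and Unc93b1 also passed with CRS as 1 sample, unlike Cxcr4.

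Interferon-inducible GTPases, which attack the vacuoles of microbes, fell as a family. All 18 tested were lower, with a median of -1.20 and a range of -2.11 to -0.93. Ifi47 had 11.4, 9.93 and 8.22 FPKM in control and 1.66, 1.42 and 1.43 in CRS (log2 -2.11, adjusted p = 0.000162), and Gbp6 fell by 1.45 (adjusted p = 0.000517). Gbp and Irg genes include close copies, so single members are uncertain. Promoters of 3 members are shown because of a shared element, the interferon-stimulated response element TTTCNNTTTC, where N is any base, in capitals on either strand. They are the 250 bases before the RefSeq start site (GRCm38.p6).
Gbp2 (chr3:142620413-142620662, plus strand): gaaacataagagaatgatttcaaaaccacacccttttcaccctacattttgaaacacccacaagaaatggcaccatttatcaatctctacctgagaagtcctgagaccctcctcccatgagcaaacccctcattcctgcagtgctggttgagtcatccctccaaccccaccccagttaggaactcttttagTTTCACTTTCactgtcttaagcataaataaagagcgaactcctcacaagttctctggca
Gbp3 (chr3:142559794-142560043, plus strand): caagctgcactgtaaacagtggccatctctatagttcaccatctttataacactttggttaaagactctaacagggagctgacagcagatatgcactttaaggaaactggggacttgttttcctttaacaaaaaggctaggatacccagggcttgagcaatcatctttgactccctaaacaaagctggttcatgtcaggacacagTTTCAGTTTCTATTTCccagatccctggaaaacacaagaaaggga
Irgm1 (chr11:48871421-48871670, minus strand): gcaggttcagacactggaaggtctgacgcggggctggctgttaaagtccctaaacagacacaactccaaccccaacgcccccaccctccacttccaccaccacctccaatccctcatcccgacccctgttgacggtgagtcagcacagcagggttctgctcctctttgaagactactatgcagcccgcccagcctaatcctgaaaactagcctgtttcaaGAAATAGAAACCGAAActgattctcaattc
In Gbp3 and Irgm1 there were 2 overlapping matches, and in Irgm1 the matching letters are on the opposite strand and read GAAANNGAAA. In Gbp2 the element began 59 bases before the start. Of the 18 members tested 11 had RefSeq promoters of 300 bases, and 9 of these 11 held the element. Of all genes with promoters 3.99% held it, of those tested 3.81%, of those called lower 6.2% and of those called higher 2.0%. Of 15 genes of MHC class I and the immunoproteasome with promoters 4 held it. The calls of Ifi47 and Gbp6 held with CRS averaged to 1 sample.

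Most lymphocyte genes tested were lower in CRS. Of 27 listed 17 were tested, of which 15 fell and 0 rose, with a median of -1.17. Il2rg, the shared chain of several cytokine receptors, had 20.5, 16 and 12.2 FPKM in control and 3.09, 5.06 and 3.75 in CRS (log2 -1.79, adjusted p = 0.00153), and the T cell receptor constant gene Trbc2 fell by 1.76 (adjusted p = 0.00119). The 5 T cell markers summed to 11 to 17.5 FPKM in control and 2.82 to 4.04 in CRS. Neutrophil granule genes went the other way at low levels. Ngp had 0, 0.0398 and 0 FPKM in control and 9.71, 9.31 and 6.52 in CRS (log2 3.21, adjusted p = 0.000116), and Camp, an antimicrobial peptide of granules, rose by 1.93 (adjusted p = 0.000173). Of the 5 neutrophil markers 3 were tested, of which S100a8 and S100a9 rose and Csf3r fell, and the defining marker Ly6g was listed at 0 in all control libraries and in CRS replicate 3. Their sum was 7.04 to 10.6 FPKM in control and 28.3 to 39 in CRS, and it rested on S100a8 and S100a9, which keratinocytes also make. The calls of Ngp and Camp held with CRS averaged to 1 sample, and those of Il2rg and Trbc2 did not.

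In the dermis, the list medians of collagens and of the proteins that decorate them had opposite signs, although many members were not called. Of 21 collagen genes 7 rose, 3 fell and 11 were not called (median 0.33). Of 21 small proteoglycans and elastic fibre genes 10 fell, 2 rose and 9 were not called (median -0.31). Col12a1, a collagen of tissue under tension, had 1.07, 1.19 and 1.68 FPKM in control and 4.58, 4.27 and 4.59 in CRS (log2 1.25, adjusted p = 0.000528). Col1a1, the main collagen of dermis, had 307, 182 and 212 FPKM in control and 427, 423 and 419.5 in CRS (log2 0.89, adjusted p = 0.0146), and missed the threshold without any 1 CRS library (0.88 to 0.90) or with all 12 libraries in the fit (0.89). Decorin (Dcn), which coats collagen fibrils, fell from 159, 109 and 169 to 53.5, 52.8 and 53.7 FPKM (log2 -1.41, adjusted p = 0.00159), and Ogn and Efemp1 fell by 1.37 and 1.44. Within each library the ratio of Col1a1 to Dcn was 1.62 ± 0.342 in control and 7.94 ± 0.104 in CRS (SD, n = 3). Lrrc15, a surface protein of matrix-making fibroblasts, had 1.15, 1.28 and 1.78 FPKM in control and 22.8, 22.4 and 21.9 in CRS (log2 3.29, adjusted p = 4.34e-05). Matrix proteases and inhibitors were split, with 9 rises and 8 falls of 22 and a median of -0.07 that was 0.10 with quantile normalization. Mmp9 fell from 9.24, 7.55 and 6.37 to 0.936, 1.11 and 0.858 FPKM (log2 -2.14, adjusted p = 0.000201). The 5 fibroblast markers had 1 rise and 3 falls and summed to 427 to 688 FPKM in control and 669 to 673 in CRS. Among them the collagen gene Col1a2 was not called (log2 0.55, limma adjusted p = 0.055). Col12a1, Efemp1, Lrrc15 and Mmp9 also passed with CRS as 1 sample, unlike Col1a1, Dcn and Ogn.

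Muscle transcripts were abundant in all 6 libraries, and both their amount and their kind differed. Of 16 fast fibre genes 8 rose and 1 fell (median 1.01), and of 7 slow fibre genes 5 rose and 1 fell (median 1.35). The fastest myosin, Myh4, had 403, 1000.4 and 1498 FPKM in control and 258, 246 and 246 in CRS (log2 -1.76, adjusted p = 0.0235), and missed the threshold without control replicate 2 (-1.63) or without any 1 CRS library (-1.78 to -1.74). Myh1, an intermediate fast myosin, had 566, 454 and 909 FPKM in control and 3411, 3519 and 3221 in CRS (log2 2.45, adjusted p = 0.000975). Their ratio within a library, Myh1 over Myh4, was 1.4, 0.454 and 0.607 in the control libraries and 13.2, 14.3 and 13.1 in the CRS libraries. The groups did not overlap. The mitochondrial and muscle share of FPKM, which was lowest at 12.8% in control replicate 1 and 31.1 to 33.0% in CRS, differed as well, and its part in the ratio was not tested. Myh2 over Myh4 was 0.163 ± 0.0318 in control and 1.34 ± 0.0459 in CRS (SD, n = 3). Slow fibre genes that rose included Mybpc1, Myoz2 and Tnnc1, by 1.72, 2.09 and 1.83. Averaging CRS to 1 sample kept the calls of Tnnc1 and ended those of Myh4, Myh1, Mybpc1 and Myoz2.

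Genes of stretched or injured muscle were higher too. Of 21 tested 12 rose and 1 fell, with a median of 1.23. Ankrd1 (ENSMUSG00000024803, chr19:36111961-36120099, minus strand, GRCm38), a sensor of stretch, had 0.119, 0.439 and 1.1 FPKM in control and 15.1, 16.3 and 16.9 in CRS (log2 3.51, adjusted p = 0.000206). Csrp3, a protein of the sarcomere edge, went from 27, 29.9 and 48.1 to 287, 408 and 451 FPKM (log2 3.43, adjusted p = 0.000353), and the small chaperone Hspb7 from 29, 40.4 and 106 to 540.0, 539 and 513 (log2 3.38, adjusted p = 0.00206). Myh3, the embryonic myosin, rose by 1.85 (adjusted p = 0.000107), while the regeneration factors Myod1 and Myog were not called. Vgll2 and Mustn1, which muscle expresses, rose by 3.11 and 2.79. Of the 5 skeletal muscle markers 2 rose and Myh4 fell, with a sum of 9076 to 21134 FPKM in control and 32336 to 33712 in CRS. The amount of muscle in a piece of skin can differ between dissections, and its part in these results was not tested. The calls of Ankrd1, Csrp3, Myh3, Vgll2 and Mustn1 held with CRS averaged to 1 sample, and those of Hspb7 did not.

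**Figure D4:**
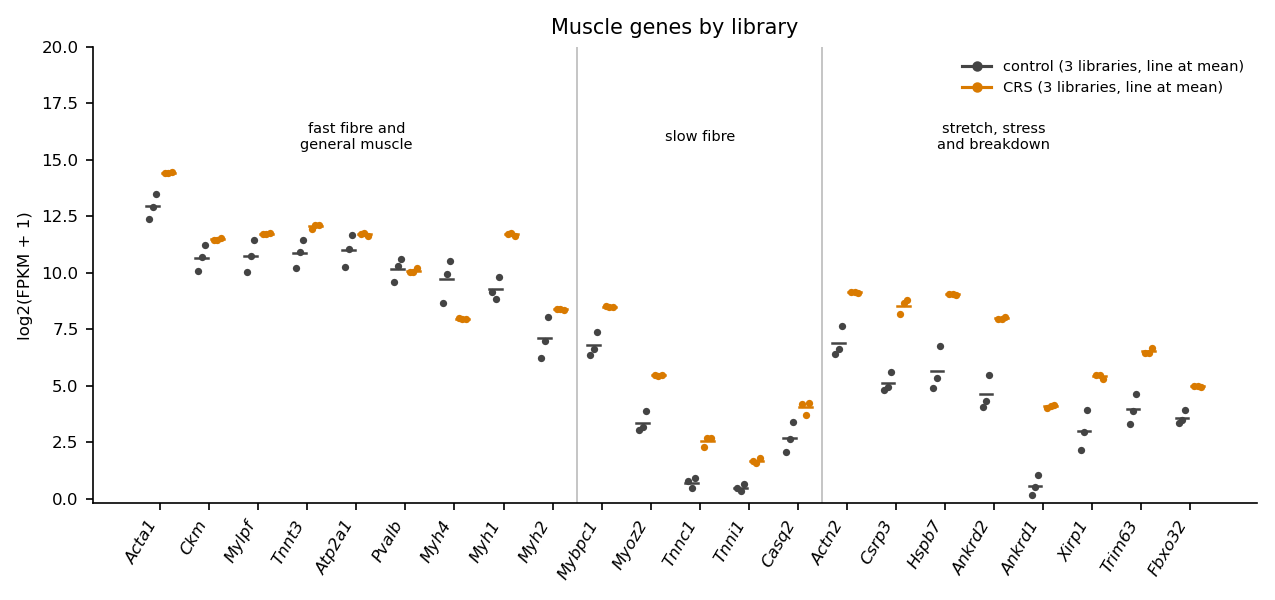
Transcript level of muscle genes as log2(FPKM + 1) (y axis) in the 3 control libraries (grey) and 3 CRS libraries (orange), with a line at each mean. Control replicate 3 is the highest control library for most genes, Myh4 and Myh1 lie in opposite directions, and Ankrd1, Csrp3, Hspb7 and Ankrd2 show the widest gaps.

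Mitochondrial genes were higher in the libraries with the higher muscle share, whose part in this was not tested. Of 36 nuclear subunits of respiratory complex I 20 rose and 0 fell, with a median of 0.45, and of 78 mitochondrial ribosomal proteins 26 rose and 0 fell, with a median of 0.21. Of 13 mitochondrially encoded genes 8 rose, with a median of 0.74, which was 0.32, with 1 rise, under quantile normalization. Ndufa12 had 14.9, 14.8 and 20.7 FPKM in control and 28.5, 29.5 and 29.2 in CRS (log2 0.77, adjusted p = 0.00591). In the KEGG pathway of the citrate cycle 15 of 29 members rose and 3 fell (median 0.51). Cytosolic ribosomal proteins had 18 falls and 2 rises of 88, with a median of -0.31 that was -0.04 with quantile normalization, where 2 fell. Proteasome subunits had 5 rises and 6 falls of 46. Both of these lists had smaller shares of falls and of rises than all genes tested, of which 28.4% fell and 15.3% rose. Hk2, the hexokinase of muscle, rose by 1.54 (adjusted p = 0.00182), and the glucose carrier Slc2a1 fell by 1.39 (adjusted p = 0.00171). With CRS averaged to 1 sample, the calls of Ndufa12, Hk2 and Slc2a1 were lost.

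Several smaller groups fell with the epidermal and immune genes. In the KEGG lysosome pathway 81 of 114 genes fell and 5 rose, with a median of -0.59, among them the proteases Ctss and Ctsl by 1.75 and 1.27. Of 18 genes of retinoid handling, which serve vitamin A signaling in epidermis, 12 fell and 1 rose, and of 25 cytochrome P450 and conjugation enzymes 13 fell and 3 rose. Crabp2, a carrier of retinoic acid, fell from 40.3, 37.6 and 26 to 9.73, 9.39 and 10.04 FPKM (log2 -1.71, adjusted p = 0.000676). Hmox1, which breaks down heme in macrophages, fell from 84.7, 65.6 and 51.2 to 13.4, 13.6 and 14.2 FPKM (log2 -2.18, adjusted p = 0.000399). Of 8 genes of sensory nerves and their support 5 fell and 1 rose. The markers of Schwann cells, which wrap nerve fibres, had a median of 0.41, with Sox10 and S100b called higher and Mbp lower of 5, and a sum of 46.4 to 60.6 FPKM in control and 67.1 to 68.6 in CRS. Calcb, a form of calcitonin gene-related peptide, had 11.9, 12.1 and 6.65 FPKM in control and 1.6, 1.86 and 1.64 in CRS (log2 -2.01, adjusted p = 0.000949), and Nrtn, a growth factor for sensory neurons, fell by 1.91 (adjusted p = 0.00259). Npy, the peptide of sympathetic nerves, rose from 0.265, 0.339 and 0.131 to 2.36, 1.44 and 1.58 FPKM (log2 1.16, adjusted p = 0.00168). Averaging CRS to 1 sample kept the calls of Ctss, Ctsl, Hmox1 and Npy and ended those of Crabp2, Calcb and Nrtn.

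A survey by symbol root, over every root with at least 10 genes tested, ranked the families without regard to function. The lowest medians were those of Lce (-3.60, 16 of 16 lower), Skint (-2.03, 11 of 11), Clec (-1.46, 10 of 13), Ccl (-1.30, 16 of 18), Serpinb (-1.25, 8 lower and 3 higher of 13) and Ly (-1.19, 10 lower and 1 higher of 14). The highest were Asb (0.64, 5 higher and 2 lower of 15), Ndufs (0.54, 6 of 10 higher), Krt (0.53, 18 higher and 11 lower of 33), Snora (0.53, 4 higher and 1 lower of 16), Coq (0.48, 4 of 11 higher) and Snord (0.39, 6 of 26 higher). In the Krt root, hair keratins were among the rises and suprabasal keratins among the falls. Among 612 windows of 1 Mb with at least 8 genes tested (GRCm38), the lowest median, -3.50, was on chromosome 3 from 92 to 93 Mb, the epidermal differentiation complex, where 32 of 35 genes fell and 1 rose. Next came chromosome 4 from 112 to 113 Mb with the Skint genes (7 of 8 lower, median -1.94) and chromosome 7 from 43 to 44 Mb with the kallikreins (12 of 17 lower and 1 higher, median -1.53). On chromosome 1 from 173 to 174 Mb 14 of 14 genes fell, with a median of -1.09. Chromosome 15 from 101 to 102 Mb, which holds the type II keratins, had 13 rises and 6 falls of 23. The highest median, 1.04, on chromosome 1 from 24 to 25 Mb, came from predicted genes that copy mitochondrial DNA, whose reads cannot be told apart from those of the mitochondrial genome.

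The effect of CRS was also measured in skin given imiquimod, an agent that inflames mouse skin, in 6 libraries that the first contrast did not use. There limma called 5162 of 13981 genes (36.9%) for CRS with imiquimod against imiquimod alone, or 3427 without replicate 2 of CRS with imiquimod, and the difference between the contrasts was called for 7325 of 14864 genes (49.3%). Of the 2131 genes higher in CRS without imiquimod, 2028 were tested in both contrasts and 923 were called in both, 177 in the same direction and 746 in the opposite one. Of the 3955 lower genes 3719 were tested in both and 1896 called in both, 491 in the same direction and 1405 in the opposite one. Fkbp5 rose in both, by 2.21 without and 1.26 with imiquimod (adjusted p = 6.97e-05 and 0.00123). Retnla fell in both, by 4.74 and 3.60 (adjusted p = 0.000116 and 7.49e-06), as did Krt77 by 4.54 and 3.28, Lce1m by 4.40 and 2.97, and Calcb by 2.01 and 1.54. Ngp rose in both, by 3.21 and 3.97 (adjusted p = 0.000116 and 0.00437). With both stressed groups averaged to 1 sample each, the effects with imiquimod held their calls for Retnla, Krt77 and Lce1m and lost them for Fkbp5, Calcb and Ngp.

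Several other groups turned around. Over all genes tested with imiquimod, 18.7% were called higher and 18.2% lower, and the difference between the contrasts was called for 49.3%. Of the 14 clock repressors and outputs 9 fell and 1 rose with imiquimod, with a median of -0.62 against 1.30 without it, and the difference between the contrasts was called for 13 of 14. Dbp had log2 differences of 1.68 without and -1.09 with imiquimod (adjusted p of the difference 2.24e-07). Hair matrix and shaft regulators had a median of -2.09 with imiquimod, where Shh fell by 3.11 (adjusted p of the difference 2.37e-05). Complement genes had a median of 1.95 with imiquimod, with 22 of 23 higher, and the difference was called for 23 of 24. C1qc rose there by 2.71 (adjusted p of the difference 5.09e-08). The 5 macrophage markers summed to 90.4, 135 and 114 FPKM with imiquimod alone, near the 101 to 111 of CRS. Their sums in CRS with imiquimod, 640, 635 and 639 FPKM, lay within the control range of 492 to 739.5. The Sprr family had 14 of 15 genes higher and a median of 3.39, against -2.78 without imiquimod. In the Lce family the sign of the median did not turn. It had 15 of 21 genes lower and 6 higher and a median of -1.60, against -3.60 without imiquimod. Each stress contrast was made within its own deposited table. The hair follicle markers summed to 8.4, 7.99 and 7.01 FPKM in CRS with imiquimod, against 13.3, 562 and 236 with imiquimod alone, where the libraries stood far apart. Shh itself had 9.61 ± 6.95 FPKM with imiquimod alone (SD, n = 3). The inner root sheath keratins Krt25 and Krt71 had 113 ± 117 and 96.7 ± 99.8 FPKM there, and their differences with imiquimod were not called (adjusted p = 0.0563 and 0.0844). The calls of the difference between contrasts held for Dbp, Shh and C1qc with both stressed groups averaged to 1 sample each, whereas the fall of Shh and that of Dbp with imiquimod were then not called (adjusted p = 0.145 and 0.0866).

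**Figure D5:**
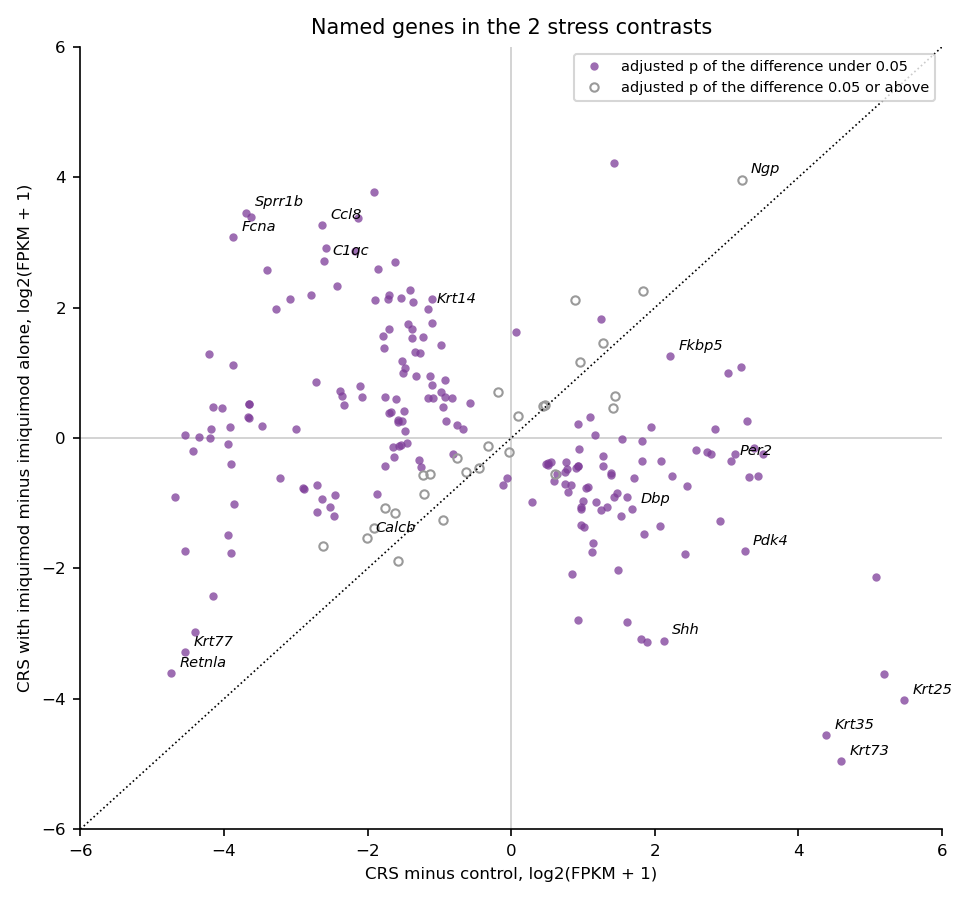
Stress effect without imiquimod (x axis) against stress effect with imiquimod (y axis), both in log2(FPKM + 1), for the named genes tested in both contrasts. Genes on the dotted line have equal effects. Fkbp5, Ngp, Retnla and Calcb have the same sign in both contrasts, while hair follicle genes at the lower right and complement, chemokine and Sprr genes at the upper left have opposite signs.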

How the data were processed

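Per the labels' protocols, total RNA of dorsal skin was isolated with TRIzol and read on a NovaSeq instrument. The submitters' processing notes name StringTie, edgeR, limma and the mm10 build, with no versions, and aligner and strand are not given in the sources used here. Deposited tables hold FPKM per gene and library, as made by the authors. The authors' fold ratios, log2 fold changes and p-values, deposited beside them, were not used. FPKM listed at 0.0001 were set to 0. Differences of mean log2(FPKM + 1) were tested with limma 3.58.1 in R 4.3.3 (trend and robust variance, two-sided, Benjamini-Hochberg over all genes tested, adjusted p under 0.05). On simulated data this method recovered most of the changed genes, but more of its calls were false than the threshold allows. Adjusted p-values may thus be too small, and not only those close to 0.05. The simulation changed few genes and drew libraries independently, so it cannot give the false share of the calls made here. Genes needed 1 FPKM in 3 of the libraries fitted. The tables give no read totals, so depth is unknown. The gene lists and members were chosen with earlier results of these data known, so lists are described by counts and medians, with no test. Of each list, up to 3 called members with the largest difference, no overlap and at least 1 FPKM were eligible for naming, with the 10 largest rises and falls outside the lists and the clock genes. Beyond these 239 genes, 25 were named after their values were seen. Positions come from GENCODE on GRCm38 (mm10), which placed 55141 of the 55401 genes, promoter sequences from RefSeq, and KEGG pathways from the deposited annotation column. Alternatives changed the pseudocount, filter, scaling, variance model, block, samples, threshold and libraries. Rescaling without mitochondrial and muscle genes was chosen after seeing the data.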

Additional observations from a re-analysis of the deposited data

Results flagged for a closer look

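The effect of restraint differed between untreated and imiquimod-treated skin for many genes. limma called this difference, the effect with imiquimod minus the effect without, for 7325 of 14864 genes (49.3%), and for 210 of the 239 genes named by rule. Among the named genes, 99 were also called in both contrasts with opposite signs, and the 12 with the largest difference are given here on the log2(FPKM + 1) scale. The hair follicle keratins Krt73 and Krt35 had differences of -9.55 and -8.94, since both were higher with restraint alone and lower with restraint and imiquimod. The libraries given imiquimod alone varied widely for both, at 90.8 ± 91.1 FPKM for Krt73 and 55.0 ± 54.3 for Krt35 (SD, n = 3), and without 1 of these libraries the difference ranged from -10.9 to -8.57 and from -10.3 to -7.99. Their falls with imiquimod lost the call without replicate 3 of imiquimod alone or any 1 library of CRS with imiquimod (limma adjusted p = 0.0568 to 0.0625 for Krt73 and 0.0656 to 0.0747 for Krt35). The other 10 went the opposite way. Among genes of the cornified and stressed epidermis, the difference was 7.15 for Sprr1b, 7.01 for Sprr2h, 5.68 for Krt16 and 5.50 for Trex2. Among immune genes it was 6.96 for the lectin gene Fcna, 5.99 for Cd209f, 5.90 for Ccl8, 5.49 for Ccl6 and 5.32 for C1qc. For the protease gene Mmp9 it was 5.52.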

How the results depend on the processing

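Against 6086 calls, 2131 higher and 3955 lower, averaging CRS to 1 sample left 838 (188 and 650), and testing against a 2-fold change left 539 (97 and 442). Rises numbered 3708 with quantile normalization and 3266 after rescaling without mitochondrial and muscle genes. Leaving out 1 library gave 4246 to 7127 calls and 1262 to 2535 rises. With imiquimod, 5162 calls became 821 with both stressed groups averaged and 3427 to 6156 without 1 library, and the 7325 calls of the difference between contrasts became 2422 when averaged. The other settings kept these counts within 1.5 times. Over 262 genes with values, 252 were called, 134 of them also with CRS as 1 sample and 118 not, and 18 lost the call without some 1 library. The sign changed only for 4 genes that were not called. These were Clock without control replicate 3 (0.117) or CRS replicate 1 (0.0402), against -0.42 without control replicate 1, Hlf with quantile normalization (0.0323) or rescaling (0.00618), Lgr5 with quantile normalization (0.0656), median-ratio scaling (0.00136) or rescaling (0.0388), and Nr1d1 with quantile normalization (0.163), median-ratio scaling (0.0654), rescaling (0.125) or without control replicate 3 (0.0853), against -0.14 without control replicate 1. The causes were not tested. Of 1040 list medians under the alternatives, 719 stayed and 321 moved by more than the spread, 152 of these under a scaling alternative. Medians of 7 of 65 lists changed sign with scaling, among them Notch genes, collagen processing, translation factors and companion layer keratins. Same-numbered control and CRS libraries had correlations of deviations of 0.0061, -0.015 and -0.048, against -0.0321 to 0.0405 for libraries of different number. No pairing by number was seen, but 3 libraries per group are too few to test for a shared batch. With the replicate number as a block, 4811 genes were called in CRS against control, 3974 with imiquimod and 7062 for the difference. Read totals were not given, so counting error at low FPKM is unknown.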

Other observations

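Cell type markers beyond those given with the results were measured in the same libraries. All 5 smooth muscle and pericyte markers were called higher, none of 5 endothelial and 5 erythroid markers was called, and 4 of 5 sebocyte markers were called lower. B cell markers stayed below the filter in all groups of the main comparison, and none of the 5 was tested.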
